A study of Mus musculus with 4 samples.

Results

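The genes described here are 8 genes of the Notch response, most of them known as targets of the pathway, namely the Hairy/enhancer-of-split repressors Hes1, Hes5, Hes6 and Hes7, the related repressors Hey1, Hey2 and Heyl, and the feedback inhibitor Nrarp. They were taken by name, as part of 18193 genes with a named probe set, and all 8 were on the array. They were read by 13 probe sets, of which the one with the highest mean over the arrays stood for its gene and the others are shown beside it. When a Notch receptor is bound by a Delta or Jagged ligand on a neighbouring cell, its intracellular part is cut free and joins the DNA-binding protein RBPJ to switch on such genes. Most Hes and Hey proteins are basic helix-loop-helix repressors that recruit Groucho co-repressors or related silencing complexes. In the embryo they keep progenitors undifferentiated, drive the oscillations of the somite clock (Hes7, with Hes1) and set arterial identity in endothelium (Hey1 and Hey2).

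The samples were 4 Affymetrix arrays of total RNA from differentiated TT2 cells, a mouse embryonic stem cell line, all heterozygous for a Venus reporter knocked into Etv2, an ETS factor needed to form blood and endothelium. Cells of both populations had been differentiated on OP9 stromal cells until day 5, per the sample labels, and sorted as positive for Flk-1, the product of Kdr and a receptor for VEGF. One population was negative for Etv2-Venus and the other positive, with 2 arrays each, numbered 1 and 2. Whether the arrays stand for separate cultures is not given in the labels, so a p-value reflects the spread among these arrays alone, which may be technical. Both populations carry 1 knock-in allele of Etv2, and no cells with 2 intact alleles are among the samples. The comparison asks how Flk-1 positive cells with and without Etv2 reporter activity differ in expression.

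Values are log2 expression values on the scale of the authors' normalization, and array medians lay between 5.46 and 5.52. Values of different probe sets are not compared with each other as amounts of RNA. Differences are Etv2-Venus positive minus negative, in log2 units, with the standard error (SE) and the 95% interval of a limma fit over all genes. A gene's arrays are called apart where both positive arrays lay on the same side of both negative arrays. Etv2 itself had means of 11.95 and 12.52 in the negative and positive population, with arrays apart and a difference of 0.57 (SE 0.13, 1.49-fold, limma adjusted p = 0.185). Its signal was thus far above the array medians in the Venus negative cells too. Kdr had means of 12.60 and 12.73. Of 12 endothelial markers 11 had arrays apart in the higher direction, and of 10 markers of early mesoderm 7 in the lower direction.

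By limma no member, and none of the 18193 genes tested, reached an adjusted p under 0.05 (0% called in either direction; 2131 genes had an unadjusted p under 0.05). Hey2 and Hey1 were the members with arrays apart in the higher direction, and Hes6 the member with arrays apart in the lower direction. For Hes1, Hes5, Hes7, Heyl and Nrarp the arrays of both populations overlapped. Among all genes, 22.4% had arrays apart in the higher direction and 17.0% in the lower direction. These shares are the background for each count of genes with arrays apart given here. The member counts of 2 and 1 of 8 are near that background and do not set the group as a whole apart. At an unadjusted p under 0.05 there were 2 of 8 members higher and 0 lower, where 7.07% and 4.64% of all genes were. The median difference of the 8 members was 0.05, and that of all genes was 0.01.

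**Figure D1:**
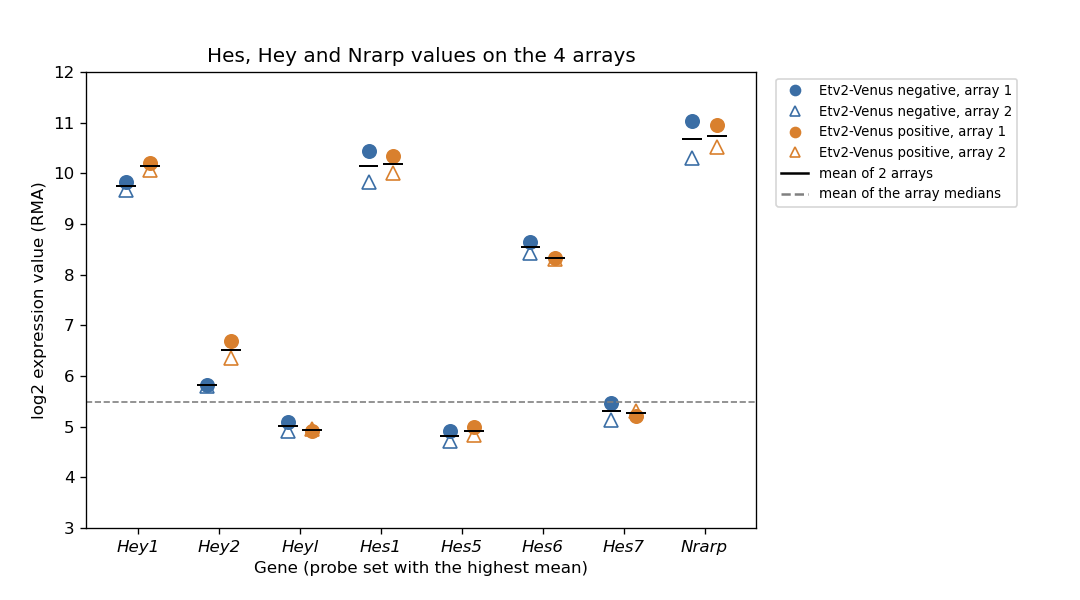
Log2 expression value of each of the 8 genes (horizontal axis) on each of the 4 arrays (vertical axis), with circles for array 1, triangles for array 2, blue for Etv2-Venus negative and orange for positive cells, black bars for the mean of 2 arrays and a dashed line at the mean of the array medians. Hey1 and Hey2 lie higher on both positive arrays, and Hes6 lies lower on both. Hes1, Hes5, Hes7 and Nrarp show wider gaps between arrays 1 and 2 than between population means.

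Hey2, a repressor that acts in arterial endothelium and in ventricular heart muscle, had the largest difference of the group. It read 5.83 and 5.80 in the Venus negative cells and 6.69 and 6.35 in the Venus positive cells (probe set 1418106_at). The lowest positive value exceeded the highest negative value by 0.52, and the gap between the positive arrays was 0.34. The difference was 0.71 (SE 0.14, 95% interval 0.34 to 1.08, 1.63-fold, n = 2 arrays per group), with an unadjusted p of 0.00493 and an adjusted p of 0.154 in limma. It ranked 292nd of 18193 genes from the highest difference. The negative arrays lay close above the array median, where RMA compresses differences, so the size is uncertain. The difference was 0.54 when positive array 1 was left out and 0.88 when positive array 2 was.

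The sequence before the Hey2 start is shown because RBPJ, through which Notch acts, binds sites that hold the letters GTGGGAA. These letters occur at 2 places around the start, and only the first place lies wholly before it. The sequence was taken from RefSeq on GRCm38.p6, minus strand, chr10:30842784-30843033, and covers the 250 bases before the start of transcription. Capitals mark the match to TTCCCAC, the reverse complement of GTGGGAA.
Hey2: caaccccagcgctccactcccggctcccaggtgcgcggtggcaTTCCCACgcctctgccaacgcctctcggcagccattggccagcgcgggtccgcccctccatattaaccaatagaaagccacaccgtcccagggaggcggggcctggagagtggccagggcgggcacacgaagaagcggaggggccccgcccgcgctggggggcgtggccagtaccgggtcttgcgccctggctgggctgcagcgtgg
The second match spans the start itself, from base -4 to base 3, counted from 1 at the first transcribed base and from -1 before it.

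Promoter windows of 300 bases (250 before to 50 after the start) were found for 5 of the 8 genes, and those of Hes1, Hey1 and Heyl were not used here. The matches to GTGGGAA on either strand are shown with their surroundings, in capitals, to set the Hey2 matches beside those of the other members. They lie at chr10:30842972-30843001 and chr10:30842769-30842798 (minus strand) for Hey2, chr4:154960686-154960715 and chr4:154960829-154960858 (plus strand) for Hes5, and chr11:69120262-69120291 (plus strand) for Hes7.
Hey2, from base -207: gcgcggtggcaTTCCCACgcctctgccaac
Hey2, from base -4: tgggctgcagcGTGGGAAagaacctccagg
Hes5, from base -226: gggcgagcgcgTTCCCACagcccggacatt
Hes5, from base -83: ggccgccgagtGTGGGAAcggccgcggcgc
Hes7, from base -180: cctcccctcacTTCCCACatttggggctag
In both Hey2 and Hes5 one match reads on each strand, and in Hes7 the single match reads on the minus strand relative to the gene. Of 32851 RefSeq promoter windows of the same length, 6.38% held at least 1 match and 0.256% held at least 2. The Nrarp window and the 2 windows of Hes6 held none, which says only that these letters are not in those windows. A match is a description and not a binding site.

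Other letters searched on both strands were the sites that Hes and Hey repressors are known to bind and a core of the sites of ETS factors such as Etv2. The N box CACNAG was found 2 times in the Nrarp window, 2 times in 1 Hes6 window and 1 time in the Hes7 window, and in 42.5% of all windows. The class C site CACGCG was found in the Hes7 window alone among these windows, from base -14, and in 9.27% of all. The E box CACGTG was found in the Nrarp window, from base -108, and in 7.15% of all. The ETS core CNGGAAG was found in 1 Hes6 window, from base -3, and in 31.9% of all. No match overlapped a match to another of these motifs.

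Hey1, which acts with Hey2 in the development of arteries and heart valves, read 9.83 and 9.67 in the Venus negative cells and 10.21 and 10.07 in the Venus positive cells (probe set 1415999_at). The nearest arrays of the populations were 0.24 apart, and the arrays within each population differed by 0.17 and 0.14. The difference was 0.39 (SE 0.11, 95% interval 0.10 to 0.68, 1.31-fold, n = 2 per group), with an unadjusted p of 0.0189 and an adjusted p of 0.286 in limma. It ranked 900th of 18193 genes from the highest. All 4 Hey1 values lay well above the array medians. Hey1 and Hey2 each had a single probe set with 1 gene symbol, so neither can be read on a second one.

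Heyl, a Hey relative known from vascular smooth muscle, read 5.09 and 4.92 in the Venus negative cells and 4.92 and 4.95 in the Venus positive cells (probe set 1419302_at). All of its values lay below the array medians, and the populations overlapped, with a difference of -0.07 (SE 0.10, 95% interval -0.34 to 0.20). The other probe sets of Heyl were dimmer. One of them, 1438886_at, measured 4.54 and 4.39 against 4.62 and 4.71, with arrays apart and a difference of 0.20. The third, 1419303_at, measured 3.98 and 3.54 against 4.11 and 3.49, and its arrays overlapped. The probe sets thus did not share a sign. Heyl gave no difference that could be told from the spread between arrays on the probe set used.

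Endothelial markers were higher on the same arrays as Hey1 and Hey2. The mean log2 level of the 12 markers was 7.63 and 7.69 in negative cells (arrays 1 and 2) and 8.58 and 8.65 in positive cells, and the median difference was 1.04. The marker that was not apart, Emcn, had means of 3.38 in both populations. The part of the endothelial markers in the Hey1 and Hey2 differences was not tested. In sorted bulk RNA, fewer cells of a type and less RNA per cell cannot be told apart.

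By root mean square difference between profiles centred on each gene's mean over the 4 arrays, the 3 genes closest to Hey2 among 10179 genes with a mean of at least 6 were Rassf2, Lurap1l and Rpp25. Their distances from the Hey2 profile were 0.0236, 0.0447 and 0.0520. Rassf2 read 7.05 and 6.98 in the Venus negative cells and 7.87 and 7.58 in the Venus positive cells, a difference of 0.70 (SE 0.13). Lurap1l and Rpp25 differed by 0.77 and 0.61. The likeness rests on 4 arrays. The 3 genes were picked as the closest profiles on these same arrays, so their differences near that of Hey2 follow from the picking. They are not separate evidence for the Hey2 difference. Hey2 was the only member that met the rule for this search, which asked for a difference of at least 0.5 with arrays apart. Hey2 and Lurap1l reached 6 only through the positive cells. Their means were 5.81 and 5.87 in negative cells and 6.52 and 6.64 in positive cells.

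**Figure D2:**
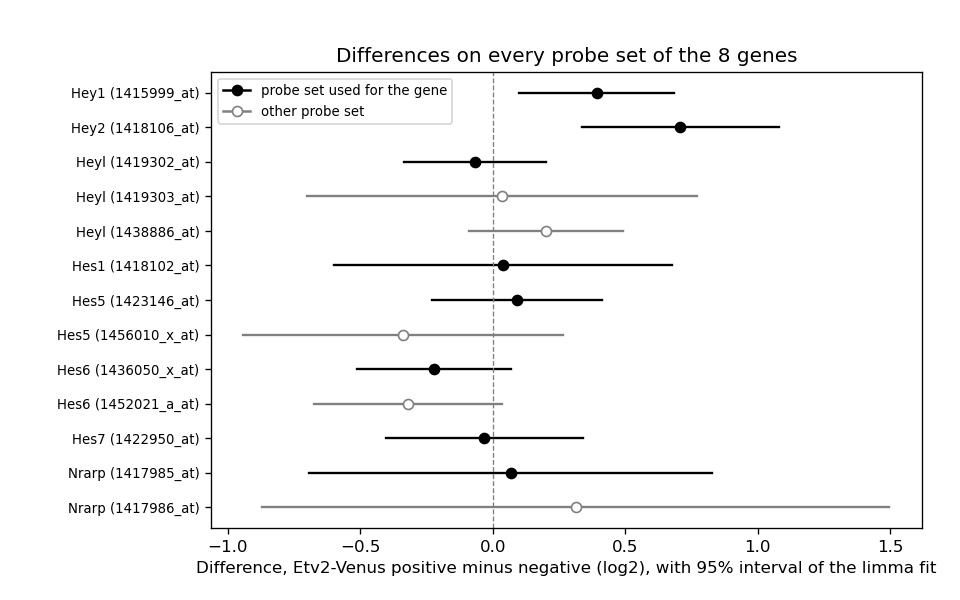
Difference between Etv2-Venus positive and negative cells (horizontal axis, log2) on each of the 13 probe sets (vertical axis), with bars for the 95% interval of the limma fit, filled points for the probe set used for the gene and open points for the others. The intervals of Hey1 and Hey2 lie above 0, and those of all other probe sets include 0.

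Hes1, the Notch target most widely used as a readout of the pathway and an oscillating repressor of progenitor cells, read 10.45 and 9.84 in the Venus negative cells and 10.34 and 10.01 in the Venus positive cells (probe set 1418102_at). Both positive values fell between the negative values. The difference was 0.04 (SE 0.24), with an adjusted p of 0.985 in limma. Its 95% interval ran from -0.60 to 0.67, or 0.660-fold to 1.60-fold. Hes1 lay far above the array median in both populations.

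Nrarp, an ankyrin repeat protein that is induced by Notch and limits the stability of its intracellular domain, read 11.04 and 10.30 in the Venus negative cells and 10.95 and 10.52 in the Venus positive cells (probe set 1417985_at). The positive values again lay inside the range of the negative ones. The difference was 0.07 (SE 0.29, 95% interval -0.69 to 0.83), with an adjusted p of 0.973 in limma. On its other probe set, 1417986_at, Nrarp measured 8.57 and 7.49 against 8.67 and 8.01, a difference of 0.31 (SE 0.44). That interval, from -0.87 to 1.50, was the widest of the 13 probe sets.

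Hes1 and Nrarp shared an order of arrays that the sort does not give. Hes1 was higher on array 1 than on array 2 by 0.61 in the negative and by 0.33 in the positive cells. Nrarp was higher by 0.73 and by 0.42, and its other probe set by 1.08 and 0.66. These gaps within a population were several times the differences between populations of 0.04 and 0.07. Of the 18193 genes, 4.80% were higher on array 1 by at least 0.3 in both populations. Gaps at least as large as the smaller gap of Nrarp were seen in both populations for 338 genes, and as large as that of Hes1 for 677. Hey1 and Hes5 were also higher on array 1 in both populations, by 0.17 and 0.14 and by 0.20 and 0.17. In all, 6 of 8 members were, where 45.9% of all genes were, and Hes7 and Heyl were not.

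Markers of OP9-like stroma, fibroblasts and adipocytes followed the same order of arrays. Both populations had been sorted for Flk-1, and whether such cells passed the sort was not tested. Lpl, one of these markers, read 10.36 and 9.16 in negative cells and 10.39 and 8.92 in positive cells, well above the array medians. Of 16 such markers 12 were higher on array 1 in both populations, with median gaps of 0.44 and 0.61. Their mean log2 level was 6.89 and 6.28 in negative cells (arrays 1 and 2) and 6.76 and 5.82 in positive cells, and 6 of the 16 had a mean below 5.5. Between populations the list had a median of -0.29, with 3 members apart in the lower direction and 0 in the higher direction. Among all genes 17.0% and 22.4% were, so the lower count is near the background. Single stroma markers had gaps in negative and positive cells of 1.96 and 2.35 (Col3a1), 1.16 and 2.54 (Fabp4) and -0.12 and -0.19 (Cxcl12). The same order held for 9 of 15 somite clock and presomitic genes, 6 of 10 mesoderm markers and 45.9% of all genes. These counts leave out the size of the gaps. Median gaps in negative and positive cells were 0.20 and 0.12 for the somite list and 0.15 and 0.11 for the mesoderm list. The part of these lists in the Hes1 and Nrarp values was not tested.

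**Figure D3:**
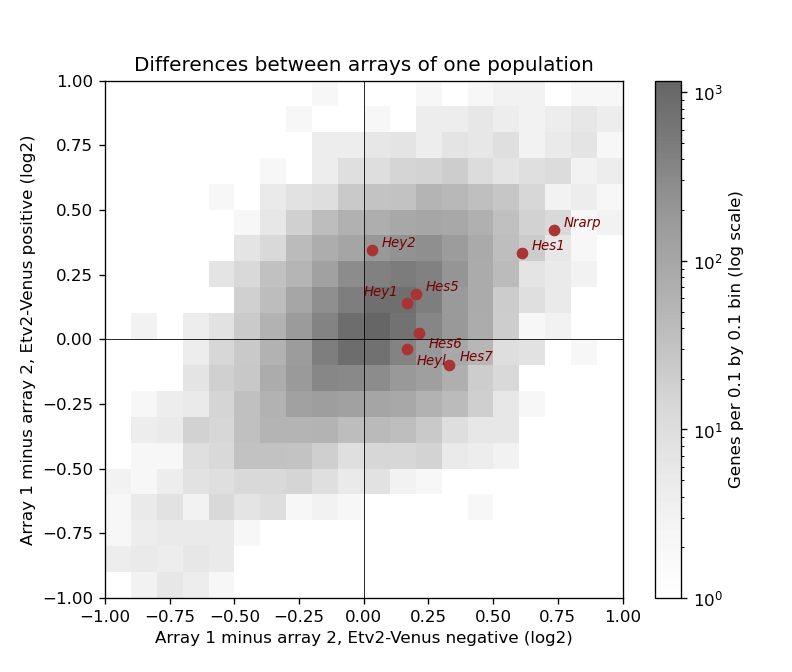
Array 1 minus array 2 in Etv2-Venus negative cells (horizontal axis, log2) against the same in positive cells (vertical axis, log2), with the 8 genes as red points and grey squares shaded by the number of genes per bin on a log scale. Nrarp and Hes1 lie farthest towards the upper right, Hes7 and Heyl lie below 0 on the vertical axis, and 123 genes outside the limits of the plot are not shown.

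Hes6, which is atypical among the Hes proteins in that it opposes Hes1 and promotes neuronal and muscle differentiation, read 8.65 and 8.44 in the Venus negative cells and 8.33 and 8.31 in the Venus positive cells (probe set 1436050_x_at). The nearest arrays of the populations were 0.10 apart. The difference was -0.22 (SE 0.11, 95% interval -0.51 to 0.07), with an adjusted p of 0.549 in limma. The other probe set, 1452021_a_at, measured 7.77 and 7.87 against 7.63 and 7.37, also with arrays apart, and gave -0.32 (SE 0.13). Both probe sets of Hes6 thus pointed lower without passing the test. Probe sets of the first kind (_x_at) may also detect sequences of other genes.

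Hes7, the repressor at the core of the somite clock in presomitic mesoderm, read 5.47 and 5.14 in the Venus negative cells and 5.22 and 5.32 in the Venus positive cells (probe set 1422950_at). Its values lay just below the array medians and overlapped, with a difference of -0.03 (SE 0.14, 95% interval -0.40 to 0.34). Of 15 other genes of the somite clock and presomitic mesoderm, 8 had arrays apart in the lower direction and 1 in the higher direction, with a median difference of -0.31. Pcdh8, a protocadherin of presomitic mesoderm, differed by -2.20 (SE 0.12), Tbx6 by -1.62 (SE 0.20), Mesp2 by -0.86 (SE 0.13) and the Wnt feedback inhibitor Nkd1 by -0.53 (SE 0.11). None of the 15 passed an adjusted p of 0.05, and 5 were lower at an unadjusted p under 0.05. Hes7 did not share their direction beyond its spread, and whether it differs from them was not tested.

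Hes5, a Notch target best known from neural progenitors, read 4.92 and 4.72 in the Venus negative cells and 5.00 and 4.83 in the Venus positive cells (probe set 1423146_at). All of these values lay below the array medians, and they overlapped, with a difference of 0.09 (SE 0.12, 95% interval -0.23 to 0.41). Its other probe set, 1456010_x_at, measured 4.49 and 3.91 against 3.95 and 3.77, a difference of -0.34 (SE 0.22) of opposite sign. The 9 neural markers measured had a median difference of 0.11, with 3 apart in the higher and 2 in the lower direction. Among them Otx2 differed by -1.57 (SE 0.34) and Sox2 by -0.71 (SE 0.29), while Sox1 and Tubb3 were at 0.35 and 0.45. Sox1 lay below the array medians on all arrays.

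The closest relatives of the family outside the 8 genes gave no call. Of Hes2, Hes3, Bhlhe40 and Bhlhe41, the differences ran from -0.19 for Bhlhe41 to 0.05 for Bhlhe40, and Hes3 alone had arrays apart, at 4.55 and 4.60 against 4.52 and 4.35. Of 5 genes of the Groucho family measured, Tle3 was at 11.30 and 11.29 in negative cells (arrays 1 and 2) and 10.83 and 10.69 in positive cells. That is a difference of -0.53 (SE 0.10), with an adjusted p of 0.141 in limma. Tle6 was also apart in the lower direction, at -0.36 (SE 0.18), and Tle4 in the higher direction, at 0.17 (SE 0.11). Tle1 and Tle2 overlapped.

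Upstream of these targets, 40 of 43 listed genes of the Notch pathway were measured, and their median difference was -0.0021. Arrays were apart for 9 in the higher and 11 in the lower direction, where 22.4% and 17.0% of all genes were. At an unadjusted p under 0.05 in limma, 4 were higher and 5 lower, where 7.07% and 4.64% of all genes were. The Delta ligands Dll1 and Dll3 differed by -1.89 (SE 0.19) and -1.83 (SE 0.16), with adjusted p-values of 0.0682 and 0.0670 in limma. The ligand Jag1 was at -0.75 (SE 0.13) and Lfng, a glycosyltransferase that tunes receptors to their ligands, at -0.44 (SE 0.12). In the other direction lay Dll4, the Delta ligand of arterial and tip cells, at 0.75 (SE 0.17), the endothelial receptor Notch4 at 0.49 (SE 0.16) and Adam10, a protease that cuts activated receptors, at 0.38 (SE 0.09). Dll4 lay below the array medians in negative cells, so its size is uncertain. Bend6, a Notch antagonist, was dim and at -0.34 (SE 0.10). Rbpj had means of 9.62 and 9.70 in the negative and positive cells, a difference of 0.07 (SE 0.17).

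Among 12 arterial genes, 4 had arrays apart in the higher and 3 in the lower direction, with a median difference of -0.08. Sox17, an endothelial transcription factor, differed by 0.96 (SE 0.12), Acvrl1, a receptor for BMP9 and BMP10 in endothelium, by 0.82 (SE 0.13) and the connexin Gja4 by 1.01 (SE 0.30). Tbx20, a T-box factor best known from the heart, was at -0.67 (SE 0.16). The ephrin Efnb2, at 0.19, completed the genes apart in the higher direction, and the connexin Gja5, at -0.18, and the hypoxia factor Epas1, at -0.33, those apart in the lower direction. The chemokine receptor Cxcr4 and the VEGF co-receptor Nrp1 were at -0.76 and -0.31 with overlapping arrays. The arterial list thus went both ways. Acvrl1 lay below the array medians in negative cells, and Gja5 in both populations, so the sizes of their differences are uncertain.

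**Figure D4:**
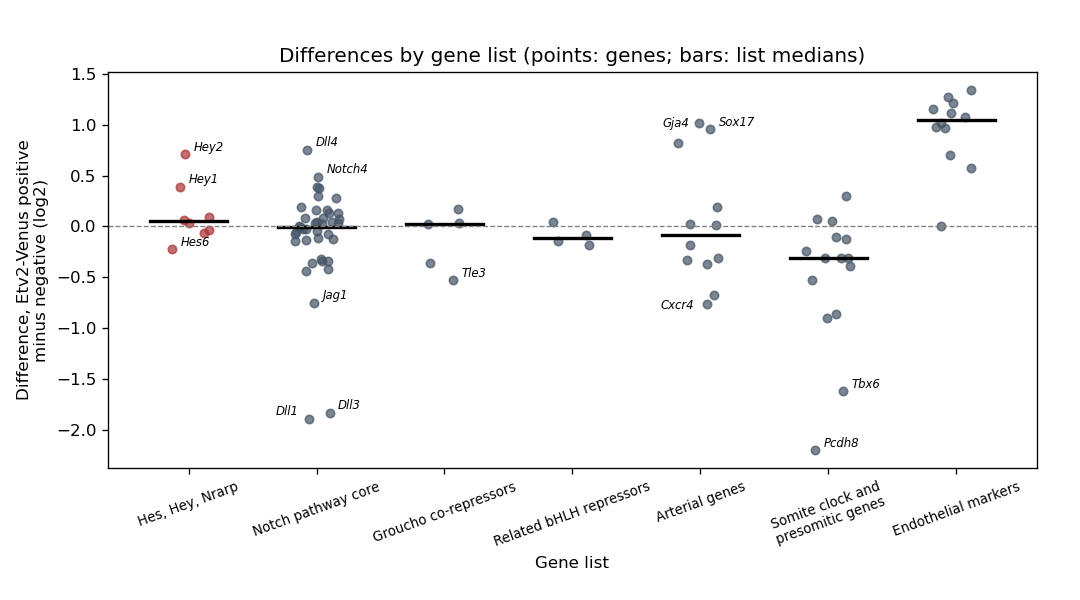
Difference between Etv2-Venus positive and negative cells (vertical axis, log2) for the members of 7 gene lists (horizontal axis), with points for genes and black bars for list medians. The 8 Hes, Hey and Nrarp genes run from -0.22 to 0.71 and the 40 genes of the Notch pathway core from -1.89 to 0.75. The endothelial markers have the highest median, 1.04.

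The remaining marker lists were read for cells that could share the sort. Of 9 smooth muscle and pericyte markers, cells in which Heyl and Hes1 are also known, 3 were apart in the lower and 1 in the higher direction. Their mean log2 level was 6.95 and 6.79 in negative cells (arrays 1 and 2) and 6.72 and 6.53 in positive cells. Rgs5 differed by -0.94 (SE 0.13), Acta2 by -0.41 (SE 0.19), Cnn1 by -0.42 (SE 0.18) and Tagln, with overlapping arrays, by -0.56 (SE 0.43). The list median was -0.13, and 4 of the 9 differences lay above 0. Of 8 blood markers 4 were apart in the higher and 3 in the lower direction, with a median difference of 0.20. Itga2b, an integrin of early blood progenitors, was at 0.70 (SE 0.11), Hba-x at 0.27 (SE 0.10) and Spi1 at 0.26 (SE 0.09). Ptprc, dim in both populations, was at -0.30 (SE 0.10) with arrays apart. The part of these lists in the member values was not tested.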

How the data were processed

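The authors deposited 1 log2 value per probe set and array. The submitters' processing notes name RMA and R 2.8.0, and the log base was inferred from the range of 2.16 to 14.93. RMA subtracts background, brings the arrays to a common distribution and combines the probes of a set, so any shift shared by all genes is lost. Groups came from the sample titles. Names came from the platform annotation, checked against RefSeq genes of GRCm38.p6. Of 34945 probe sets with exactly 1 symbol, the one with the highest mean stood for each of 18193 genes.

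Differences were tested in limma 3.58.1 (lmFit, then eBayes; R 4.3.3), two-sided, with population as the sole covariate and 2 residual degrees of freedom, and p-values were adjusted by Benjamini-Hochberg over all genes, with 0.05 as the threshold. The fitting step was tested on simulated data. There 200 of 18193 genes were changed. The fit called 8% of changes of 0.5 log2 units, 92% of changes of 1 and 98% of those of 1.5 and of 2. The 16 false calls are to be read against the calls among the 200 changed genes. These rates need not hold for the real arrays, on which no gene was called. Where an array is left out, the lone array of its population is assumed to vary like the other population.

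The members and lists were chosen with earlier results of these data known. Named were all members and the 3 genes most like a member that differed by at least 0.5. Per list, up to 4 genes with the smallest p were named (8 for the Notch pathway). The endothelial, mesoderm and stroma lists were exceptions, given by counts and summary values apart from genes named for contrast. Further list genes named for contrast were chosen after their values were seen. They were Rbpj, Emcn, Tle1, Kdr, Etv2, Efnb2, Gja5, Epas1, Cxcr4, Nrp1, Gata1, Hbb-bh1, Klf1, Col3a1, Fabp4, Cxcl12 and Lpl. Listed genes without a match among the measured genes were not used here. Motifs were searched in RefSeq promoter windows of GRCm38.p6. Figures were drawn with matplotlib 3.10.9.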

Additional observations from a re-analysis of the deposited data

How the results depend on the processing

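Under the alternatives, none of the 85 refitted member values passed an adjusted p of 0.05 in limma, and the smallest was 0.105, for Hey2 among genes with a mean of at least 6. Hey2 passed that filter only through the positive cells, with means of 5.81 and 6.52, so this p does not support its difference. The filter left out Hes5, Hes7 and Heyl. Hey1, Hey2 and Hes6 kept their direction under all 11 alternatives, with adjusted p-values from 0.123 to 0.714, from 0.105 to 0.551 and from 0.277 to 0.837. The count of called genes was 0 in the main setting (2131 at an unadjusted p under 0.05), 112 (81 higher, 31 lower) when eBayes used a trend with robust fitting and 79 (66 and 13) among genes with a mean of at least 6. It was 0 under the other 9 alternatives. With the mean over all probe sets, Hes5 turned to -0.12 and Heyl to 0.055. Leaving out each array in turn gave ranges of -0.27 to 0.34 for Hes1, -0.0093 to 0.19 for Hes5, -0.20 to 0.13 for Hes7, -0.15 to 0.014 for Heyl and -0.30 to 0.43 for Nrarp, all of which turned sign. The ranges were -0.33 to -0.12 for Hes6, 0.31 to 0.47 for Hey1 and 0.54 to 0.88 for Hey2. The cause was not tested. With the array number as a replicate block, Hey2 remained at 0.71 (limma adjusted p = 0.124) and Hey1 at 0.39 (0.123), the 95% intervals narrowed to -0.28 to 0.35 for Hes1 and -0.27 to 0.41 for Nrarp, and 0 genes were called, with 3678 at an unadjusted p under 0.05. With every one of 34945 probe sets tested, 3236 were under it. The labels do not say that the numbers pair the arrays. Over genes, the array 1 minus array 2 differences of the populations correlated at 0.543. The number of arrays limits precision, and Hes5, Hes7 and Heyl lay below the array medians.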
